A study of Mus musculus with 12 samples.

Results

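The genes described here are the matrix metalloproteinases (MMPs), the ADAM and ADAMTS proteinases, the ADAMTS-like proteins (ADAMTSL) and the tissue inhibitors of metalloproteinases (TIMPs), followed in adipocyte precursor cells of 2 fat depots on 2 diets. They were taken by gene symbol (Mmp, Timp, Adam, Adamts or Adamtsl followed by a number) and kept where at least 10 counts were present in at least 3 libraries. Of 54 matching genes 53 were kept, out of 14398 genes in the table: 13 MMPs, 4 TIMPs, 13 ADAMs, 18 ADAMTSs and 5 ADAMTSLs. The gene left out was Adam7, which is named with its counts at the end. All 53 entered the tests, and 44 of them had 10 or more counts in all 12 libraries.

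The cells came from male C57Bl6/J mice aged 6 to 8 weeks and were sorted as CD45-/CD31-, CD29+, CD34+ and Sca1+, with CD24 negative and positive cells together. Perigonadal fat is called VWAT here and inguinal subcutaneous fat SWAT. Libraries labelled SD came from mice on standard diet and carry the label day 0, and libraries labelled HFD came from mice given a 60% lard diet and carry the label day 3, so that diet and day of collection cannot be told apart. Each of the 4 groups (VWAT SD, VWAT HFD, SWAT SD, SWAT HFD) had 3 libraries, each pooled from 3 mice, and the p-values measure the spread between these pools.

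MMPs are zinc-dependent endopeptidases that cleave collagens, gelatins, proteoglycans and other matrix proteins, and most are made as inactive proenzymes. ADAMs are membrane-bound and release growth factors, cytokines and receptors from the cell surface, whereas ADAMTSs are secreted and act on proteoglycans, procollagens and microfibril proteins. ADAMTSL proteins share the ancillary domains of ADAMTSs without the catalytic domain, and TIMPs bind and block the active sites of MMPs and of some ADAMs and ADAMTSs. In adipose tissue these enzymes are known for remodelling the pericellular collagen network in which precursor cells divide and fat cells enlarge.

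Library depth was 17630284 to 56094076 gene counts, and all 10 genes listed for the sorting gate and for mesenchymal precursors were detected in every group. Their levels differed between depots (7 of 10 called lower in VWAT on SD), as given with the depot calls. Replicate 3 of VWAT HFD stood apart from the other two: the summed level of 10 cell cycle genes was 101 CPM (counts per 1000000 gene counts of the TMM-scaled library) in it against 247 and 401 CPM, and 22.7 to 35.1 CPM in VWAT SD. In 15 of the 17 members called with diet in VWAT, and in 34 of all 53 members, this library was the VWAT HFD library nearest to the VWAT SD mean. The share over all genes was not counted, so these counts do not set the members apart. Members whose diet calls appear without this library are named beside each count. Replicate 2 of SWAT HFD had a summed level of 12 leukocyte genes of 48.8 CPM, against 13.1 and 16.8 CPM in the other SWAT HFD libraries.

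The 4 members below stand for the patterns that follow, and their promoter windows were printed to show the letters at their starts: Mmp3, Mmp27 and Mmp12, which lie near each other on chromosome 9 (Mmp27 and Mmp12 within 5 coding genes of Mmp3 in the GRCm38 annotation) and differed between depots, and Adamtsl2, which had the lowest adjusted p of the members that rose with diet in VWAT. Each window runs from 250 bases before to 50 bases after the start in RefSeq (GRCm38.p6). The windows lie at chr9:7445572-7445871 for Mmp3, chr9:7571146-7571445 for Mmp27, chr9:7347124-7347423 for the second of 2 Mmp12 windows and chr2:27079129-27079428 for Adamtsl2, all on the plus strand. Capitals mark the AP-1 motif TGANTCA, which reads the same on both strands, and TATAAA searched on both strands; the motifs did not overlap.
Mmp3: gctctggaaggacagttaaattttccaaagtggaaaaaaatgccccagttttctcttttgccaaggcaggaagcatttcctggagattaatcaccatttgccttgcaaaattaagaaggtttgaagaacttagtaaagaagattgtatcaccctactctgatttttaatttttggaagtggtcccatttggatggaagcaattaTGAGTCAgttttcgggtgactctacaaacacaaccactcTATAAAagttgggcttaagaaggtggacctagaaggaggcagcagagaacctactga
Mmp27: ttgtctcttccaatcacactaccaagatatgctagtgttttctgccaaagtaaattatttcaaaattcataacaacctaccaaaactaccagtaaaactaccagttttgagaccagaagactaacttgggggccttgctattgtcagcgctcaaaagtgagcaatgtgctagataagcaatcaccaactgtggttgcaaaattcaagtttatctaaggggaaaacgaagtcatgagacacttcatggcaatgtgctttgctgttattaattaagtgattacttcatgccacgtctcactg
Mmp12: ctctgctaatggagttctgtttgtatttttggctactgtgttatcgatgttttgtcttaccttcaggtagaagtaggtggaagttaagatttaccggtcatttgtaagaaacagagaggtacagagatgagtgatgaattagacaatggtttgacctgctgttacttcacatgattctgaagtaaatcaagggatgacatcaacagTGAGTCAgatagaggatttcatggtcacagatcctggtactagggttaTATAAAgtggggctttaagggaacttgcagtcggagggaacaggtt
Adamtsl2: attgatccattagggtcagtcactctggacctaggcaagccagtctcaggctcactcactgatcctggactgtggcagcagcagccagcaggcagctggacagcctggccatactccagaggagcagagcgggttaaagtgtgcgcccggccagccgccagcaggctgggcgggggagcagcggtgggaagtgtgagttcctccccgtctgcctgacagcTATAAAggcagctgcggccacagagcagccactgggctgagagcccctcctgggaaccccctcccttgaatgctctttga
TGANTCA began 46 bases before the start of Mmp3 and 44 bases before that of Mmp12, and neither motif was in the Mmp27 window or in the other Mmp12 window. TATAAA began 30 bases before the start of Adamtsl2 and 7 bases before that of Mmp3. In the second Mmp12 window it began at -4 on this scale, which is after the start. Windows were found for 32 of the 53 members (36 windows); 8.33% of them held TGANTCA against 7.81% of all 32851 windows, and 11.1% held TATAAA against 13.6% of all. These letters are a description of the windows and not of binding.

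Levels were compared between genes as CPM per kilobase of exon (the exon lengths are those of GENCODE for GRCm38, while the reads were counted on mm9). On this scale Timp2, the inhibitor that also takes part in the activation of pro-MMP2, was the highest member in VWAT SD (1013) and in SWAT SD (1016 CPM per kilobase). Mmp2, which encodes gelatinase A, followed with 257 CPM per kilobase in VWAT SD and 758 in SWAT SD. Mmp14, which encodes the membrane-type enzyme that activates pro-MMP2, had 106 and 141, and the proteoglycanase gene Adamts1 102 and 106 CPM per kilobase. Mmp3, which encodes stromelysin 1, had the third-highest level in SWAT SD (279 CPM per kilobase) and 5.85 CPM per kilobase in VWAT SD. At the other end, 6 members (Adam4, Adam8, Adamts18, Adamts20, Mmp9 and Timp4) had group means under 1 CPM in all 4 groups. No row of the table carries the symbol Mmp13, an interstitial collagenase of the mouse.

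The comparison of HFD with SD libraries in VWAT asked which of these genes changed in visceral precursors with 3 days of the lard diet. The ADAMTSs carried most of the rise: 8 of 18 rose and 0 fell, among them Adamts12, Adamts14, Adamts9 and Adamts8. Of the 13 MMPs 0 rose and 3 fell (Mmp11, Mmp12 and Mmp3), and the TIMPs split, with Timp1 higher and Timp3 lower. In all 17 of 53 members were called at an adjusted p under 0.05 in the edgeR quasi-likelihood test (32.1%), against 15.6% of the 14266 genes tested. The 12 higher members stand beside a background of 8.64% of genes called higher, and the 5 lower ones beside 6.98%. The median log2 change was 0.29 over the members and 0.62 over the ADAMTSs, beside -0.017 over all genes. Without replicate 3 of VWAT HFD 29 members were called (20 higher, 9 lower; 29.8% of genes), without its replicate 2 8 members (5.29% of genes), and without replicate 3 of VWAT SD 9 members (6.76% of genes). The 12 members that gained a call without replicate 3 of VWAT HFD were Mmp16, Mmp17, Mmp27, Adam5, Adam10, Adamts10, Adamts16 and Adamts17, all higher in HFD, and Mmp2, Timp2, Adamtsl1 and Adamtsl3, all lower. Scaled by library size alone, which moved the median of all genes to -0.126, the split was 10 higher and 7 lower (18.4% of genes called). In bulk RNA of a sorted population, fewer cells of a type and less RNA per cell cannot be told apart.

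**Figure D1:**
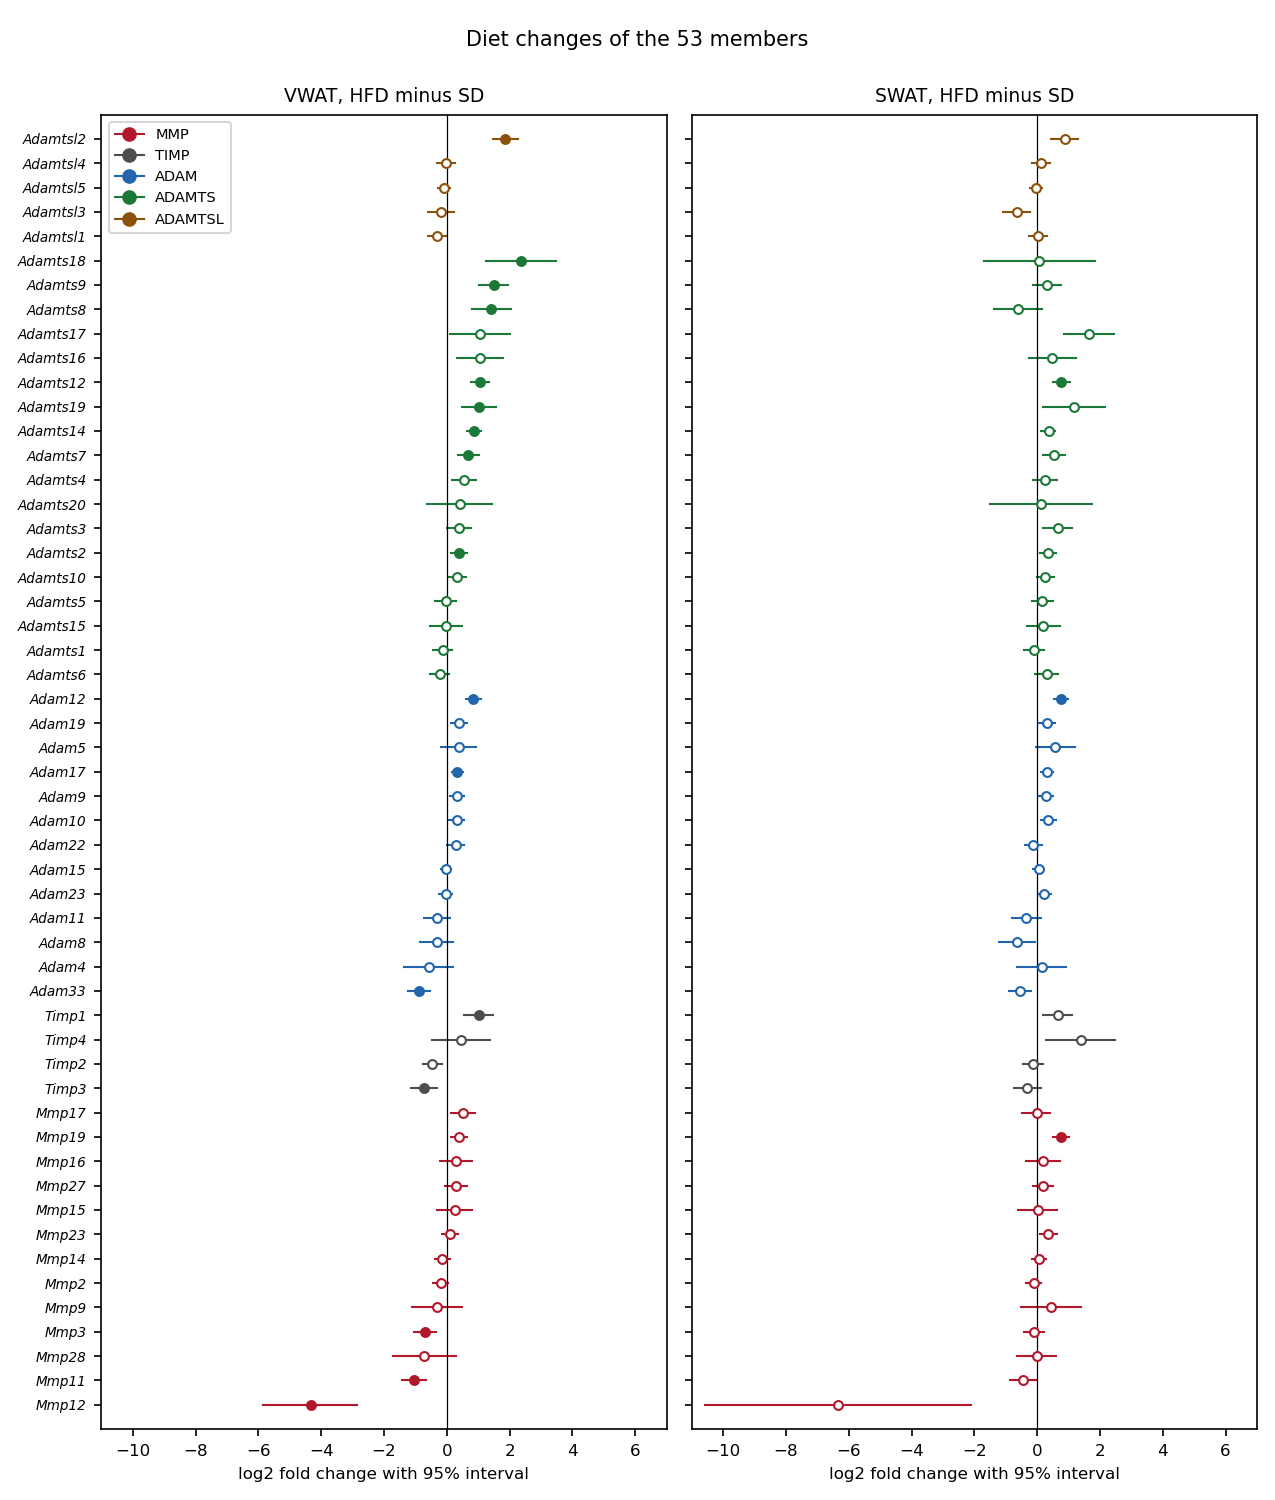
Log2 fold changes of all 53 members between HFD and SD libraries in VWAT (left) and SWAT (right), with 95% intervals, coloured by subfamily; filled points were called at an adjusted p under 0.05. The 8 filled ADAMTS points on the left all lie above 0, 3 points are filled on the right, and the Mmp12 estimate on the right is fitted against libraries with 0 counts.

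Among the MMPs, Mmp11 encodes stromelysin 3, an enzyme activated inside the cell by furin. It stood at 38.3, 33.0 and 23.7 CPM in the VWAT SD libraries and at 13.4, 12.9 and 19.6 CPM in the VWAT HFD libraries. All HFD values lay under all SD values, and Mmp11 fell 2.07-fold (log2 change -1.05, SE 0.198, adjusted p = 0.00441).

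Mmp12, the macrophage elastase gene, was a low-count member with 318 counts summed over VWAT SD and 15 over VWAT HFD. Its levels were 0.884, 2.92 and 2.36 CPM in VWAT SD and 0.0169, 0.0803 and 0.215 CPM in VWAT HFD. The ratio of HFD to SD was 0.0486 (95% counting interval 0.0269 to 0.0813), and the fitted log2 change was -4.34 (SE 0.763, adjusted p = 0.00441), or -5.39 without replicate 3 of VWAT HFD. In SWAT it had 29 counts over the SD libraries and 0 over the HFD libraries, 7.66-fold lower against a floor of 3 counts over the group. The 95% counting interval of the ratio was 0 to 0.171, and the change was not called (adjusted p = 0.208). Of 13 leukocyte genes listed 12 were in the table. Their sum ran from 11.2 to 18.3 CPM in VWAT SD and from 7.57 to 11.1 CPM in VWAT HFD, and of the 9 tested 1 fell and 0 rose there. Their part in the Mmp12 result was not tested. In the SWAT HFD library with a leukocyte sum of 48.8 CPM, Mmp12 was at 0 counts.

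Mmp3 stood at 13.2, 8.97 and 9.47 CPM in VWAT SD and at 6.25, 6.36 and 6.88 CPM in VWAT HFD. The groups did not overlap, and it fell 1.63-fold (log2 change -0.70, SE 0.177, adjusted p = 0.0194). The call was lost without replicate 1 of VWAT SD (adjusted p = 0.0817) and without replicate 1 (0.0639) or 2 (0.0825) of VWAT HFD. The major collagen- and gelatin-cleaving members gave no call with all 12 libraries. Mmp2 was at 812, 895 and 888 CPM in VWAT SD and 694, 687 and 894 CPM in VWAT HFD, and the groups overlapped (log2 change -0.19, 95% interval -0.43 to 0.05, adjusted p = 0.31); without replicate 3 of VWAT HFD it was called lower (log2 change -0.33, adjusted p = 0.0318). Mmp14 was at 624, 628 and 646 CPM against 554, 555 and 618 CPM, a log2 change of -0.14 (95% interval -0.37 to 0.10, adjusted p = 0.467). Mmp9, which encodes gelatinase B, stayed between 0.194 and 0.741 CPM in all 6 libraries, too low for a narrow interval (log2 change -0.30, 95% interval -1.10 to 0.50).

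Timp1 encodes a soluble inhibitor of most MMPs. It stood at 27.7, 23.8 and 22.7 CPM in VWAT SD and at 60.5, 60.3 and 29.1 CPM in VWAT HFD. Replicate 3 lay just above the SD libraries and the other 2 at more than double them, and Timp1 rose 2.02-fold (log2 change 1.02, SE 0.232, adjusted p = 0.0119). The call was lost without replicate 3 of VWAT SD (adjusted p = 0.0579) and without replicate 1 (0.0501) or 2 (0.0692) of VWAT HFD.

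Timp3 encodes the matrix-bound inhibitor, which also blocks ADAM17 and several ADAMTSs. It stood at 393, 384 and 394 CPM in VWAT SD and at 192, 176 and 343 CPM in VWAT HFD. All HFD values were lower, and Timp3 fell 1.65-fold (log2 change -0.72, SE 0.215, adjusted p = 0.039). This call was the least stable of the TIMPs, being lost in 10 of 19 alternatives, with adjusted p from 0.0515 to 0.179 when replicate 1, 2 or 3 of VWAT SD, replicate 1 or 2 of VWAT HFD, replicate 1 or 2 of SWAT SD or replicate 2 of SWAT HFD was left out.

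Timp2 stood at 4065, 3851 and 3928 CPM in VWAT SD and at 2497, 2384 and 3715 CPM in VWAT HFD. It missed the threshold (log2 change -0.46, SE 0.155, adjusted p = 0.0606) and passed it without replicate 3 of VWAT HFD (log2 change -0.69, adjusted p = 0.000496). Timp2 also passed by DESeq2 (adjusted p = 0.0179), by limma voom (0.0454) and when scaled by library size alone (0.027). Timp4 ranged from 0.332 to 0.910 CPM in VWAT SD and from 0.452 to 1.47 CPM in VWAT HFD, with overlapping groups and no call (adjusted p = 0.543).

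Of the 13 ADAMs 2 rose and 1 fell. Adam12 encodes meltrin alpha, an ADAM found in developing and regenerating mesenchyme. It stood at 149, 174 and 171 CPM in VWAT SD and at 285, 321 and 282 CPM in VWAT HFD. The groups were well apart, and Adam12 rose 1.80-fold (log2 change 0.85, SE 0.118, adjusted p = 0.00103).

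Adam33, a member expressed by mesenchymal cells, moved the other way. It stood at 26.8, 28.4 and 30.1 CPM in VWAT SD and at 13.1, 12.4 and 20.3 CPM in VWAT HFD, and fell 1.87-fold (log2 change -0.90, SE 0.179, adjusted p = 0.00606).

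The 2 main sheddase genes had small differences. Adam17, whose product releases TNF and EGF receptor ligands, stood at 94.3, 85.3 and 73.7 CPM in VWAT SD and at 103, 111 and 108 CPM in VWAT HFD. The groups did not overlap and it was called 1.27-fold higher (log2 change 0.34, SE 0.0958, adjusted p = 0.0295), a call lost without replicate 2 (0.081) or 3 (0.124) of VWAT SD or replicate 2 of VWAT HFD (0.124), when scaled by library size alone (0.102) and in a fit of the 6 VWAT libraries (0.079). Adam10, whose product cleaves Notch receptors, stood at 86.1, 68.3 and 65.4 CPM against 91.4, 98.9 and 83.2 CPM. Its groups overlapped and it was not called (log2 change 0.32, SE 0.12, adjusted p = 0.0927). Adam10 passed without replicate 1 of VWAT SD (adjusted p = 0.0353) or replicate 3 of VWAT HFD (0.0412), and with the replicate block (0.0456). The other 9 ADAMs were not called, with log2 changes between the values of Adam33 and Adam12.

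Adamts12 and Adamts14 were the ADAMTSs with the lowest adjusted p. Adamts12, whose product is known to cleave cartilage oligomeric matrix protein, stood at 272, 262 and 223 CPM in VWAT SD and at 517, 572 and 485 CPM in VWAT HFD. Every HFD library was far above every SD library, and it rose 2.08-fold (log2 change 1.05, SE 0.138, adjusted p = 0.000869). Adamts14 encodes a procollagen N-proteinase. It stood at 44.9, 50.9 and 47.0 CPM in VWAT SD and at 76.8, 91.8 and 90.9 CPM in VWAT HFD, and rose 1.82-fold (log2 change 0.86, SE 0.113, adjusted p = 0.000869).

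The other procollagen N-proteinase genes were Adamts2 and Adamts3. Adamts2, the main one of skin and tendon, stood at 842, 771 and 749 CPM in VWAT SD and at 1001, 1175 and 931 CPM in VWAT HFD, 1.32-fold higher (log2 change 0.40, SE 0.124, adjusted p = 0.0477). Leaving out any 1 of 9 of the 12 libraries ended the call (adjusted p from 0.0541 to 0.22; it held without replicate 3 of VWAT HFD and without replicates 1 and 3 of SWAT HFD), as did scaling by library size alone (0.0906) and a fit of the 6 VWAT libraries (0.0892). Adamts3 was not called with diet.

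Adamts9 and Adamts8 belong to the proteoglycanase group and were at low levels. Adamts9 stood at 3.44, 3.56 and 2.55 CPM in VWAT SD and at 11.3, 9.99 and 5.66 CPM in VWAT HFD, a 2.83-fold rise (log2 change 1.5, SE 0.232, adjusted p = 0.00165). Adamts8 stood at 4.59, 6.05 and 4.10 CPM and at 12.5, 19.1 and 7.57 CPM, a 2.66-fold rise (log2 change 1.41, SE 0.319, adjusted p = 0.0113). In both genes replicate 3 was the lowest HFD library and still above all SD libraries. The Adamts8 call was lost without replicate 3 of VWAT SD (adjusted p = 0.0588) or replicate 2 of VWAT HFD (0.071).

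The abundant proteoglycanase genes gave no call. Adamts1 stood at 573, 580 and 468 CPM in VWAT SD and at 409, 496 and 577 CPM in VWAT HFD, with overlapping groups (log2 change -0.13, 95% interval -0.44 to 0.18). Adamts5, one of the aggrecanases, stood at 966, 904 and 963 CPM against 698, 839 and 1241 CPM, again overlapping (log2 change -0.03, 95% interval -0.36 to 0.30). Adamts4, the other aggrecanase, stood at 503, 507 and 324 CPM against 626, 653 and 673 CPM. All 3 HFD values were above the SD values, but it missed the threshold (log2 change 0.55, SE 0.193, adjusted p = 0.0715). Adamts4 passed by DESeq2 (adjusted p = 0.0276), with the replicate block (0.02) and without replicate 3 of SWAT SD (0.0435).

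Adamts7, whose product also cleaves cartilage oligomeric matrix protein, stood at 10.1, 10.1 and 8.62 CPM in VWAT SD and at 15.7, 19.0 and 11.9 CPM in VWAT HFD (log2 change 0.69, SE 0.171, adjusted p = 0.0173). The call was lost without replicate 3 of VWAT SD (adjusted p = 0.0791) or replicate 2 of VWAT HFD (0.103). Adamts18 had 12 counts over VWAT SD and 63 over VWAT HFD, a ratio of 5.40 (95% counting interval 2.89 to 11). It was called (adjusted p = 0.015), and lost the call without replicate 1 (0.0646) or 3 (0.0516) of VWAT SD or replicate 1 (0.0502) or 2 (0.081) of VWAT HFD. Adamts19 stood at 10.4, 8.72 and 9.60 CPM against 19.4, 27.1 and 11.9 CPM (log2 change 1.03, SE 0.285, adjusted p = 0.029). Its call was lost without any 1 VWAT library except replicate 3 of VWAT HFD (adjusted p from 0.0677 to 0.176).

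Adamtsl2 was the 1 called ADAMTSL and the member with the lowest adjusted p. Its product binds fibrillin and latent TGF-beta binding proteins, and human mutations cause geleophysic dysplasia. It stood at 10.3, 9.71 and 9.58 CPM in VWAT SD and at 38.8, 47.5 and 21.7 CPM in VWAT HFD. Even the lowest HFD library was more than double the SD libraries, and it rose 3.65-fold (log2 change 1.87, SE 0.206, adjusted p = 0.000644). The other 4 ADAMTSLs were not called. Without replicate 3 of VWAT HFD Adamtsl1 (log2 change -0.43, adjusted p = 0.0419) and Adamtsl3 (log2 change -0.53, adjusted p = 0.0311) passed, and Adamtsl1 also passed when scaled by library size alone (adjusted p = 0.0476).

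**Figure D2:**
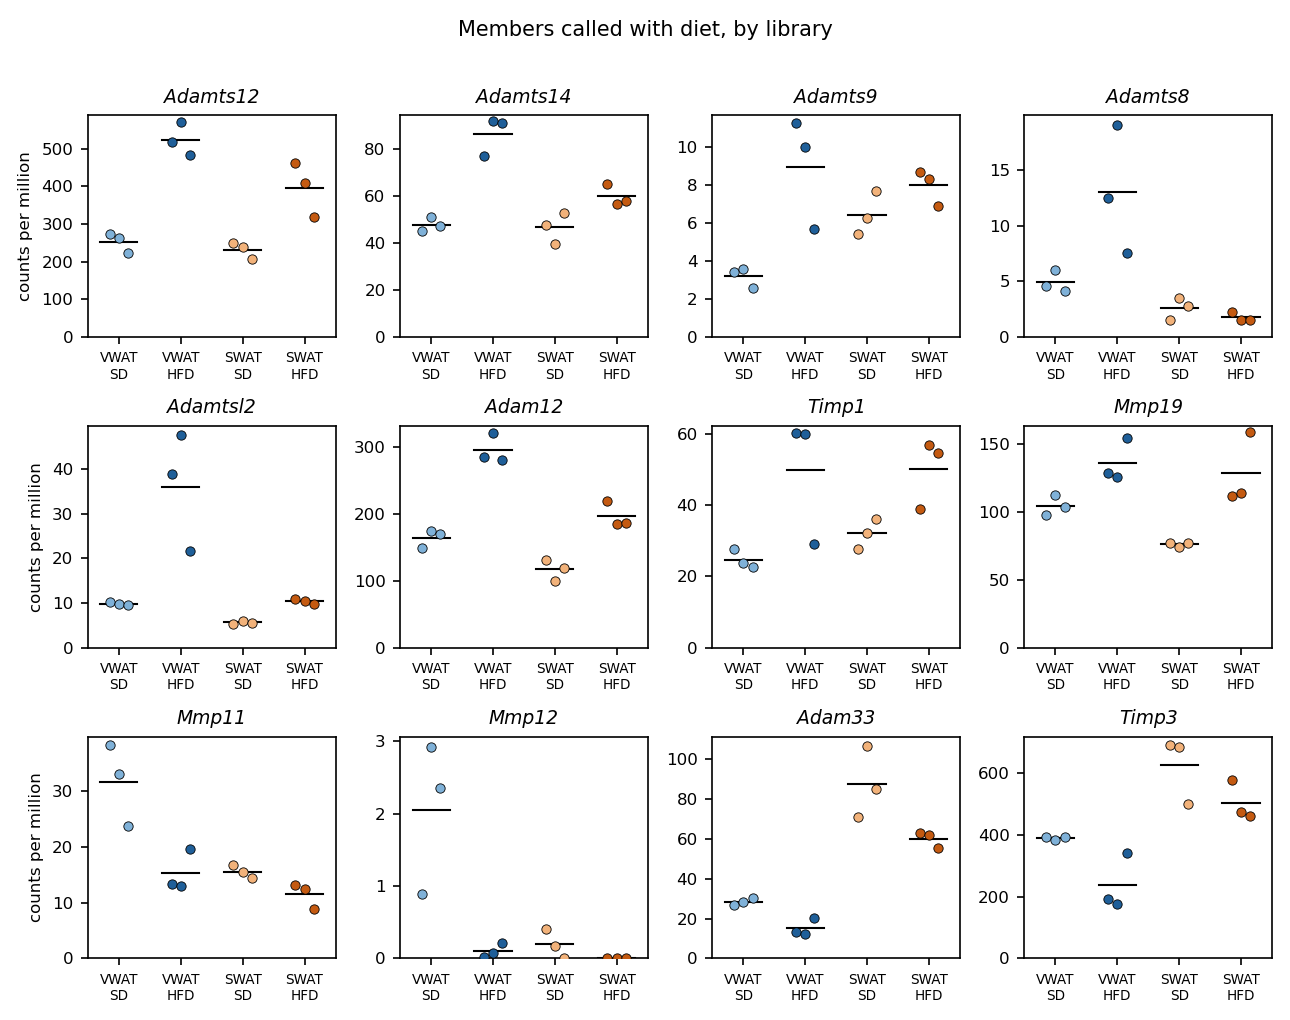
CPM of 12 members called in a diet comparison, by group; each point is 1 library in replicate order and each bar is the mean of 3. In VWAT HFD, replicate 3 is the lowest point for Adamts9, Adamts8, Adamtsl2 and Timp1 and the highest for Mmp11, Adam33 and Timp3.

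Cell cycle genes moved with the same comparison. All 10 listed genes were higher in VWAT HFD, where their sum was 101 to 401 CPM against 22.7 to 35.1 CPM in VWAT SD, and the part of cell division in the member changes was not tested. Of the 17 calls, 8 (Adamtsl2, Adamts12, Adamts14, Adam12, Adamts9, Mmp11, Mmp12 and Adam33) held in all 19 alternative analyses of this comparison.

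In SWAT, the same comparison gave fewer calls: 3 members rose (5.66% of 53) and 0 fell. They were Adam12, Adamts12 and Mmp19, so 1 ADAM, 1 ADAMTS and 1 MMP. Of all genes 1.11% were called, 0.967% higher and 0.147% lower, and the median log2 change was 0.19 over the members and -0.001 over all genes. With Mmp12 placed at its value against the floor, the members' median was still 0.19. At an unadjusted p under 0.05 22 members would pass, and 2120 of the 14266 genes. By DESeq2 6 members were called (3.64% of genes) and by limma voom 1 (0.0841% of genes). With any 1 of the SWAT SD libraries or replicate 2 of SWAT HFD left out, 0 genes of the whole table were called, and so 0 members; without replicate 1 of SWAT HFD 1 member was (0.349% of genes). Without replicate 3 of VWAT HFD, whose spread enters the shared model, 8 members were called (4.29% of genes), with Timp1, Adamts17 and Adamtsl2 added higher and Adam33 and Adamtsl3 lower. Cell cycle genes moved with this comparison too: 9 of 10 were higher in SWAT HFD, and their sum was 90.3 to 125.6 CPM against 12.9 to 20.4 CPM in SWAT SD; their part in the member changes was not tested.

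Adam12 stood at 131, 100 and 120 CPM in SWAT SD and at 220, 185 and 187 CPM in SWAT HFD. The groups did not overlap, and it rose 1.68-fold (log2 change 0.75, SE 0.118, adjusted p = 0.0201). The call was lost without any 1 SWAT library except replicate 3 of SWAT HFD (adjusted p from 0.0516 to 0.108).

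Adamts12 stood at 251, 238 and 207 CPM in SWAT SD and at 461, 408 and 320 CPM in SWAT HFD, a 1.71-fold rise (log2 change 0.77, SE 0.138, adjusted p = 0.025). It too lost the call without any 1 SWAT library except replicate 3 of SWAT HFD (adjusted p from 0.0651 to 0.149), and by limma voom (0.0531). Adam12 and Adamts12 were the members called in both depots, which is 11.8% of the members called in VWAT and 66.7% of those called in SWAT, beside 6.37% and 89.3% for all genes.

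Mmp19 encodes a basement membrane-cleaving MMP. It stood at 76.5, 74.0 and 76.9 CPM in SWAT SD and at 111, 114 and 159 CPM in SWAT HFD, a 1.69-fold rise (log2 change 0.76, SE 0.132, adjusted p = 0.0238). The call was lost without any 1 SWAT SD library (adjusted p = 0.127, 0.149 and 0.0658) or replicate 2 of SWAT HFD (0.0803), by limma voom (0.0551) and when scaled by library size alone (0.0627). In VWAT it stood at 97.7, 112 and 103 CPM in SD and 129, 125 and 155 CPM in HFD and missed the threshold (log2 change 0.38, adjusted p = 0.0644). There it passed by DESeq2 (adjusted p = 0.0262), with the replicate block (0.0488) and without replicate 3 of SWAT HFD (0.0183).

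The members named for their roles gave no other SWAT call. Timp1 stood at 27.9, 32.2 and 36.2 CPM in SWAT SD and at 39.1, 56.9 and 54.9 CPM in SWAT HFD, with all HFD values higher but an adjusted p of 0.209 (log2 change 0.66, SE 0.233), or 0.0177 without replicate 3 of VWAT HFD. Timp3 (log2 change -0.31), Timp2 (-0.14), Mmp2 (-0.11) and Mmp14 (0.05) had adjusted p from 0.54 to 0.887. Adamtsl2 stood at 5.38, 5.91 and 5.55 CPM in SWAT SD and at 10.8, 10.5 and 9.72 CPM in SWAT HFD. Its SWAT groups were far apart relative to their spread, yet the adjusted p was 0.0833 (log2 change 0.87, SE 0.22). DESeq2 gave 0.00661 and a fit of the 6 SWAT libraries 0.00339, and without replicate 2 (0.0347) or 3 (0.000373) of VWAT HFD it passed.

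Whether a diet change differed between depots was tested by the interaction of diet and depot. No member was called, and 0% of all genes were. An unadjusted p under 0.05 was reached by 5 of 53 members, beside 1026 of 14266 genes, a share near that of all genes. They were Adamts8, Adamts9, Adamtsl2, Adamts14 and Mmp3. Adamts8, with the lowest adjusted p of these, rose in VWAT. It stood at 1.51, 3.53 and 2.75 CPM in SWAT SD and 2.21, 1.55 and 1.498 CPM in SWAT HFD. Its difference in log2 change was 2.02 (SE 0.499, adjusted p = 0.47), called by DESeq2 (adjusted p = 0.0294) and without replicate 3 of VWAT HFD (0.032). Without that library Adamts9 (adjusted p = 0.0233) and Adamtsl2 (0.00768) were called as well. The 2 diet comparisons thus gave different numbers of calls without a called difference between depots. Of the 53 members 40 had changes of the same sign in both depots (75.5%, against 73.6% of all genes).

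The comparison of VWAT with SWAT asked which members mark the depot of origin. On SD 15 members were higher in VWAT and 15 lower, 30 in all (56.6%), against 25.7% of all genes (13.2% higher, 12.5% lower). On HFD 16 were higher and 14 lower, again 30, against 26.8% of all genes (13.4% higher and 13.4% lower). Mmp3, Mmp27, Mmp28 and Mmp2 were lower in VWAT on both diets, and Adamts19, Adamts6 and Adamts3 higher. By subfamily on SD, 5 MMPs were higher and 5 lower, 7 ADAMTSs higher and 2 lower, 2 ADAMs higher and 4 lower, 1 ADAMTSL higher and 3 lower, and 1 TIMP lower. On HFD 1 MMP was higher and 5 lower, 11 ADAMTSs higher and 1 lower, 2 ADAMs higher and 4 lower, 2 ADAMTSLs higher and 3 lower, and 1 TIMP lower. Scaling by library size alone moved the median of all genes to 0.236 on SD and 0.301 on HFD and the splits to 22 higher and 10 lower (37.8% of genes called) and to 24 higher and 13 lower (48.7% of genes called). The same-numbered SD libraries of the depots varied together, though replicates 1 and 2 were not told apart. With the replicate number as a block 33 members were called on SD (25.7% of genes): Adamts5 lost its call (adjusted p = 0.0649), and Adam17 (0.0415), Adam19 (0.0468), Adamts16 (0.0171) and Adamts8 (0.0254) gained one.

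**Figure D3:**
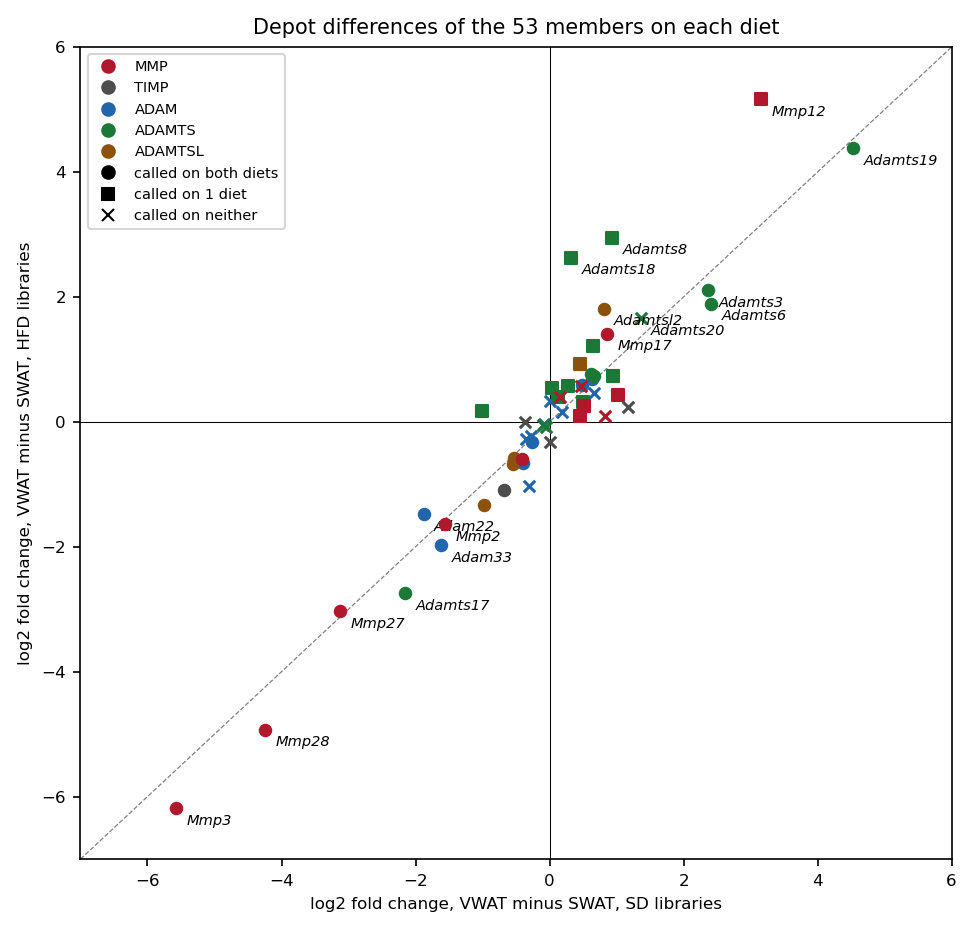
Log2 fold change between VWAT and SWAT of the 53 members in SD libraries (horizontal axis) and HFD libraries (vertical axis), coloured by subfamily, with marker shapes for calls on both diets, 1 diet or neither. Adamts9 is the member whose sign differs between the axes, and the vertical value of Mmp12 is fitted against 0 counts in SWAT HFD.

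Stromelysin 1 marked the depot most strongly. Mmp3 stood at 426, 467 and 614 CPM in SWAT SD and at 425, 434 and 551 CPM in SWAT HFD, beside the 6.25 to 13.2 CPM of the VWAT libraries given above. On SD it was 47.6-fold lower in VWAT (log2 change -5.57, SE 0.201, adjusted p = 7.54e-10) and on HFD 72.3-fold lower (log2 change -6.18, SE 0.208, adjusted p = 4.27e-10). Its neighbour Mmp27, a little-studied secreted MMP, had the same direction. It stood at 5.53, 6.16 and 6.00 CPM in VWAT SD, 8.96, 7.83 and 4.71 CPM in VWAT HFD, 50.04, 50.8 and 54.5 CPM in SWAT SD and 59.9, 64.1 and 52.9 CPM in SWAT HFD. That was 8.78-fold lower in VWAT on SD (log2 change -3.13, SE 0.181, adjusted p = 3.95e-08) and 8.19-fold lower on HFD (log2 change -3.03, SE 0.179, adjusted p = 5.43e-08). The third neighbour, Mmp12, went the other way on SD, with 318 counts over VWAT SD and 29 over SWAT SD, a ratio of 8.23 (95% counting interval 5.62 to 12.5; adjusted p = 0.00585). On HFD it had 15 and 0 counts, 3.06-fold higher in VWAT against the floor of 3 counts, with no call (adjusted p = 0.161). The 95% counting interval of that ratio began at 2.2 and had no upper limit.

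Mmp28 encodes epilysin. It stood at 0.340, 0.339 and 0.406 CPM in VWAT SD, at 0.404, 0.201 and 0.0215 CPM in VWAT HFD, at 7.46, 6.37 and 6.83 CPM in SWAT SD and at 9.23, 6.37 and 5.12 CPM in SWAT HFD. The depots were an order of magnitude apart on both diets (log2 change -4.24, SE 0.394, adjusted p = 2.86e-06 on SD; log2 change -4.93, SE 0.425, adjusted p = 1.47e-06 on HFD, or -5.86 without replicate 1 of VWAT HFD).

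Mmp2 was the most abundant MMP in both depots. It stood at 2613, 2415 and 2640 CPM in SWAT SD and at 2555, 2385 and 2149 CPM in SWAT HFD, all above the VWAT values of 687 to 895 CPM. On SD it was 2.95-fold lower in VWAT (log2 change -1.56, SE 0.125, adjusted p = 6.98e-07) and on HFD 3.12-fold (log2 change -1.64, SE 0.126, adjusted p = 5.26e-07). Its activator Mmp14 stood at 925, 782 and 816 CPM in SWAT SD and at 935, 968 and 715 CPM in SWAT HFD. It was called lower in VWAT on SD (log2 change -0.41, adjusted p = 0.0231) and on HFD (-0.60, adjusted p = 0.00218). The SD call was lost without any 1 VWAT SD library (adjusted p = 0.0725, 0.0702 and 0.0552) or replicate 1 of SWAT SD (0.0882), and when scaled by library size alone (0.202).

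Mmp11 was at 16.8, 15.5 and 14.4 CPM in SWAT SD and so 2.03-fold higher in VWAT on SD (log2 change 1.02, SE 0.199, adjusted p = 0.00169). On HFD, with 13.2, 12.5 and 8.93 CPM in SWAT, it was not called (log2 change 0.43, adjusted p = 0.153). Mmp17, a GPI-anchored membrane-type MMP, was called higher in VWAT on both diets (log2 change 0.86 on SD and 1.41 on HFD). Mmp9 stood at 0.544, 0.741 and 0.425 CPM in VWAT SD, 0.455, 0.722 and 0.194 CPM in VWAT HFD, 0.344, 0.346 and 0.229 CPM in SWAT SD and 0.268, 0.619 and 0.354 CPM in SWAT HFD, and was called in no comparison.

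Of the inhibitors, Timp3 was the 1 called between depots. It stood at 692, 683 and 500 CPM in SWAT SD and at 577, 473 and 462 CPM in SWAT HFD, so lower in VWAT on both diets. The log2 change was -0.68 on SD (SE 0.214, adjusted p = 0.0323) and -1.09 on HFD (SE 0.216, adjusted p = 0.00194). The SD call was lost when scaled by library size alone (adjusted p = 0.105) and without any 1 VWAT SD library or replicate 1 or 2 of SWAT SD (adjusted p from 0.0807 to 0.106). Timp2 stood at 4049, 4042 and 3784 CPM in SWAT SD and at 3769, 3805 and 3231 CPM in SWAT HFD. On SD its depot difference was 0 on the log2 scale (95% interval -0.31 to 0.30), and on HFD -0.33 (adjusted p = 0.141), or -0.56 without replicate 3 of VWAT HFD (adjusted p = 0.00127). Timp1 gave no depot call (adjusted p = 0.281 on SD and 0.974 on HFD). Timp4 ranged from 0.183 to 0.402 CPM in SWAT SD and from 0.334 to 1.18 CPM in SWAT HFD, and its depot differences were not called (adjusted p = 0.144 and 0.779).

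Among the ADAMs, Adam22 encodes a catalytically inactive member known as a receptor of LGI1 in the nervous system. It stood at 7.72, 6.47 and 6.09 CPM in VWAT SD, 8.44, 8.19 and 8.00 CPM in VWAT HFD, 26.3, 28.3 and 19.7 CPM in SWAT SD and 25.8, 23.5 and 19.95 CPM in SWAT HFD. The depots did not overlap on either diet, and it was 3.67-fold lower in VWAT on SD (log2 change -1.88, SE 0.144, adjusted p = 4.99e-07) and 2.79-fold lower on HFD (log2 change -1.48, SE 0.143, adjusted p = 4.26e-06). Of 7 Schwann cell genes listed 5 were in the table, and their sum was 34.1 to 40.6 CPM in SWAT and 6.76 to 12.9 CPM in VWAT, with 4 of 5 lower in VWAT on each diet; their part in the Adam22 result was not tested. Adam33 stood at 71.0, 107 and 85.0 CPM in SWAT SD and at 62.9, 61.8 and 55.3 CPM in SWAT HFD, 3.08-fold lower in VWAT on SD (log2 change -1.62, SE 0.178) and 3.93-fold lower on HFD (log2 change -1.98, SE 0.183). Adam12 was called higher in VWAT on both diets (log2 change 0.49 and 0.59).

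The sheddase genes Adam10 and Adam17 were near the threshold or short of it between the depots, and alternatives moved their calls. Adam10 stood at 70.7, 64.4 and 57.0 CPM in SWAT SD and at 81.7, 89.0 and 75.2 CPM in SWAT HFD, and was not called (adjusted p = 0.281 and 0.396). It passed when scaled by library size alone (adjusted p = 0.0107 on SD and 0.00603 on HFD) and in the fit of the 6 SD libraries with the replicate block (0.0129). Adam17 stood at 105, 106 and 95.4 CPM in SWAT SD and at 131, 127 and 118 CPM in SWAT HFD, with log2 changes of -0.27 on SD (adjusted p = 0.0532) and -0.23 on HFD (adjusted p = 0.102). On SD it passed with the replicate block (adjusted p = 0.0415), by DESeq2 (0.019) and by limma voom (0.0477), and in 10 of 20 alternatives in all. Adam23 and Adam15 were called lower in VWAT on both diets and Adam11 higher, each by under 1 on the log2 scale. Their SD calls rested on few libraries: Adam23 lost its call without replicate 2 of VWAT SD (adjusted p = 0.0636), Adam15 without replicate 1 or 2 of VWAT SD, replicate 2 of VWAT HFD or replicate 1 or 3 of SWAT SD (0.0508 to 0.145), and Adam11 without replicate 1 or 3 of VWAT SD, any 1 SWAT SD library or replicate 2 of VWAT HFD or SWAT HFD (0.0525 to 0.135). Scaled by library size alone, Adam15 was called on neither diet (0.758 and 0.775) and Adam23 not on SD (0.247). On HFD the Adam11 call was lost without replicate 1 of VWAT SD, replicate 1 or 2 of VWAT HFD, SWAT SD replicate 1 or 2 or SWAT HFD replicate 2 or 3 (0.056 to 0.174), and in a fit of the 6 HFD libraries (0.121).

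Of the members called on SD, Adamts19 had the largest excess in VWAT, followed by Mmp12 and by Adamts6 and Adamts3. Adamts19, a member with few known substrates, stood at 0.459, 0.433 and 0.275 CPM in SWAT SD and at 1.87, 0.928 and 0.499 CPM in SWAT HFD, with the VWAT values of 8.72 to 27.1 CPM far above. It was 23.1-fold higher in VWAT on SD (log2 change 4.53, SE 0.401, adjusted p = 1.81e-06), with 1542 and 50 counts and a 95% counting interval of 17.5 to 31.3 for the ratio, and 20.9-fold on HFD (log2 change 4.38, SE 0.376, adjusted p = 1.38e-06).

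Adamts6, whose product acts on fibrillin microfibrils and syndecan 4, stood at 8.79, 6.98 and 8.46 CPM in VWAT SD, 7.41, 6.60 and 6.75 CPM in VWAT HFD, 1.26, 1.62 and 1.74 CPM in SWAT SD and 2.41, 1.80 and 1.60 CPM in SWAT HFD. All VWAT values exceeded all SWAT values (log2 change 2.41, SE 0.173, adjusted p = 2.87e-07 on SD; log2 change 1.89, SE 0.175, adjusted p = 2.81e-06 on HFD). Adamts3, the procollagen N-proteinase that also processes VEGF-C, stood at 11.2, 11.1 and 7.85 CPM in VWAT SD, 11.5, 14.8 and 13.3 CPM in VWAT HFD, 2.05, 1.82 and 1.97 CPM in SWAT SD and 4.62, 2.32 and 2.73 CPM in SWAT HFD. It too was higher in VWAT without overlap (log2 change 2.37, SE 0.22, adjusted p = 2.9e-06 on SD; log2 change 2.11, SE 0.217, adjusted p = 7.77e-06 on HFD).

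The abundant ADAMTSs had depot differences of at most 0.57 on the log2 scale. Adamts1 stood at 606, 636 and 438 CPM in SWAT SD and at 503, 575 and 494 CPM in SWAT HFD, and Adamts2 at 862, 855 and 808 CPM and at 1177, 1135 and 894 CPM. Neither gave a depot call (log2 changes from -0.10 to -0.05). Adamts5 stood at 705, 668 and 628 CPM in SWAT SD and at 775, 808 and 657 CPM in SWAT HFD, and was called higher in VWAT on SD (log2 change 0.50, adjusted p = 0.0455), a call lost in 11 of 20 alternatives, among them leaving out any 1 of the 6 SD libraries (adjusted p from 0.079 to 0.12), replicate 2 of VWAT HFD (0.0532) or replicate 1 (0.0656) or 2 (0.0617) of SWAT HFD. Adamts4 stood at 412, 421 and 276 CPM in SWAT SD and at 448, 508 and 362 CPM in SWAT HFD, and was called higher in VWAT on HFD (log2 change 0.57, adjusted p = 0.0444). Leaving out 1 library ended that call in 9 of 12 cases (adjusted p from 0.0503 to 0.146; it held without replicate 3 of VWAT SD, replicate 3 of SWAT SD or replicate 2 of SWAT HFD). Adamts8 was called on HFD (log2 change 2.95, SE 0.368, adjusted p = 4.23e-05) and had a log2 change of 0.93 on SD (adjusted p = 0.0635, or 0.0254 with the replicate block). On SD it passed in 8 of 20 alternatives. Adamts17 ran against the group and was lower in VWAT on both diets (log2 change -2.15 and -2.74).

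The ADAMTSLs were divided. Adamtsl1, Adamtsl4 and Adamtsl5 were lower in VWAT on both diets, by -0.53 to -1.33 on the log2 scale; Adamtsl4 lost its SD call without replicate 3 of VWAT SD (adjusted p = 0.0539), without replicate 2 of SWAT SD (0.0678) and when scaled by library size alone (0.0676). Adamtsl2 was higher in VWAT, by 1.76-fold on SD (log2 change 0.81, SE 0.215, adjusted p = 0.0128; lost without replicate 1 of SWAT SD, 0.0577) and by 3.5-fold on HFD (log2 change 1.81, SE 0.211, adjusted p = 2.37e-05). Adamtsl3 was called higher in VWAT on HFD (log2 change 0.92).

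**Figure D4:**
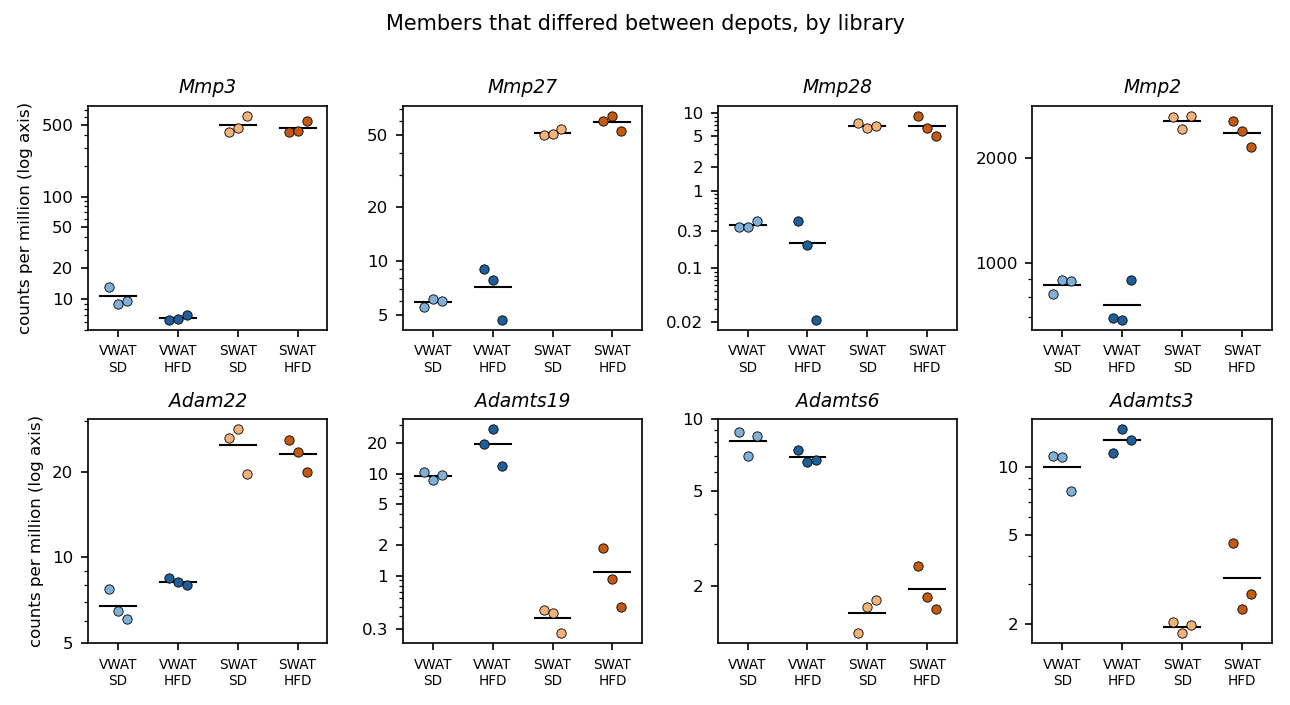
CPM on log axes of 8 members named for their depot difference, by group; each point is 1 library in replicate order and each bar is the mean of 3. No VWAT point overlaps a SWAT point on the same diet in any panel: 4 MMPs and Adam22 are lower in VWAT, and Adamts19, Adamts6 and Adamts3 are higher.

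The depot calls were largely shared between diets: 23 members were called in the same direction on both, which is 76.7% of each list, beside 73.0% and 69.9% for all genes. Markers of mesothelium moved with the depot. Of 10 listed 8 were in the table, and their sum was 130 to 174 CPM in VWAT and 9.63 to 16.4 CPM in SWAT, with 6 of 8 higher and 1 lower in VWAT on each diet. Most of the sum was Wt1 (mean 115 CPM in VWAT SD), which visceral precursors are known to express. Rspo1 was next in VWAT, at 40.9 to 51.4 CPM in VWAT SD and 10.2 to 11.8 CPM in SWAT SD. Msln was at 1.13 and Upk3b at 1.69 CPM in VWAT SD, and Upk1b was at 0 in all SWAT libraries. Krt19 ran the other way, with means of 0.638 CPM in VWAT SD and 2.71 CPM in SWAT SD. Mural cell genes moved with the depot in both directions, 4 higher and 3 lower in VWAT on SD and 5 and 2 on HFD of 10 tested, and with diet in VWAT 3 rose and 2 fell; their sum was 127 to 168 CPM in VWAT and 79.8 to 133 CPM in SWAT. Of the 10 gate and mesenchymal genes 7 were lower and 0 higher in VWAT on SD, and 6 lower and 1 higher on HFD. Means in VWAT SD and SWAT SD were 471 and 989 CPM for Ly6a, which encodes Sca1, and 5155 and 23200 CPM for Col1a1. On HFD 8 of 10 cell cycle genes were higher in VWAT (sums 101 to 401 CPM against 90.3 to 125.6 CPM), and 3 of 9 tested leukocyte genes were lower. On SD 0 genes of either list were called. The part of these markers in the member differences was not tested. No listed epithelial gene was in the table.

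Genes that work with these proteinases were read from lists. Of the plasminogen system, which activates several pro-MMPs, 8 of 11 listed genes were tested. The list median for diet in VWAT was 0.69 on the log2 scale, beside -0.017 over all genes. With diet 6 of these 8 genes rose in VWAT and 0 fell, beside 8.64% and 6.98% of all genes. They included Plaur, the urokinase receptor (12.7 ± 1.33 CPM in VWAT SD and 21.8 ± 4.35 CPM in VWAT HFD, standard deviation, n = 3), Serpinb2 (log2 change 1.56) and Anxa2 (0.93). In SWAT 1 of the 8 was called, Serpinb2 (log2 change 1.99), beside 0.967% of all genes called higher. Its levels were low, 0.096 to 0.367 CPM in SWAT SD and 0.535 to 1.21 CPM in SWAT HFD.

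Of 7 tested proteoglycan and microfibril partners of the ADAMTSs, 3 rose and 1 fell with diet in VWAT, beside 8.64% and 6.98% of all genes. Vcan, which encodes versican, a substrate of several ADAMTSs, was at 510 ± 86.0 CPM in VWAT SD and 931 ± 97.9 CPM in VWAT HFD (log2 change 0.87), and in SWAT it was the 1 called (log2 change 0.64). Fbn1, the fibrillin gene, had a log2 change of 0.77 and Fbn2 of 3.22, while Comp, whose product is cleaved by ADAMTS7 and ADAMTS12, fell from a mean of 0.277 CPM in VWAT SD (log2 change -2.23). Of the 23 tested cell surface proteins known to be shed by ADAMs 3 rose in VWAT (Areg, Notch3 and Cd44) and 0 in SWAT, with 8.64% of all genes called higher in VWAT. None of the 7 tested iRhom and tetraspanin partners of ADAM10 and ADAM17 was called with diet in either depot.

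Outside the TIMPs, 9 tested activators and inhibitors of metalloproteinases had 1 called higher in VWAT with diet, Furin (log2 change 0.30), and 1 lower, Spock2 (-0.68), and none called in SWAT. Of 5 tested genes of procollagen processing 2 rose in VWAT, Bmp1 (log2 change 0.40) and Pcolce (0.78). Of 13 cathepsins and membrane peptidases 2 rose there, Ctsh (0.53) and Fap (0.62). The counts of these lists stand beside 8.64% of all genes called higher and 6.98% called lower in VWAT. In SWAT Ctsh was called (0.68), beside 0.967% of all genes called higher. Between depots on SD, Mme, which encodes neprilysin, was 13.2-fold lower in VWAT (111 ± 7.18 CPM in SWAT SD and 8.37 ± 1.88 CPM in VWAT SD), and the membrane peptidase gene Dpp4 2.50-fold lower. The procollagen enhancer Pcolce was 4.12-fold lower in VWAT on SD, and the astacin gene Tll1 8.90-fold lower, whereas its relative Tll2 was 9.51-fold higher. The Tll2 ratio rests on low levels, 0.0458 to 0.230 CPM in SWAT SD and 1.255 to 2.23 CPM in VWAT SD.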

How the data were processed

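Poly(A) RNA of sorted adipocyte precursors was sequenced as 75 bp reads in 12 libraries. Per the submitters' processing notes TopHat and HTSeq were used with mm9; versions and the strand setting of the counting are not given in the sources used here, so overlapping genes and near-identical copies stay uncertain. The authors deposited raw counts per gene, 17630284 to 56094076 in all per library. The 3 entries that name no gene were left out of library sizes; per library they hold 3.53 to 5.57% (no feature), 1.71 to 1.95% (ambiguous) and 14.98 to 20.81% (not unique) of the column. The deposited table holds only genes with a highest count of at least 20.

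From these counts, edgeR 4.0.16 (R 4.3.3) gave TMM-scaled fits. Genes were filtered with filterByExpr by group (132 removed, 14266 tested) and 1 robust quasi-likelihood model of the 4 groups was fitted, with Benjamini-Hochberg adjustment over all genes tested and calls at an adjusted p under 0.05. CPM values are counts per 1000000 of the TMM-scaled library size. Counting intervals and floors (3 counts) cover counting error only. Alternatives were DESeq2 1.42.0, limma voom 3.58.1, other scalings, no filter, the replicate block, the 6 libraries compared and leaving out each library.

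Per-library values were given for members called with diet (the 12 with the lowest adjusted p), for the 4 with the lowest adjusted p in each direction between depots, and for a set list of well-known members; up to 4 called genes of each further list were named, and 1 gene of these lists is not reported here. The members and lists were chosen with earlier results of these data known. Same-numbered libraries of VWAT SD and SWAT SD deviated together (correlations 0.18, 0.18 and 0.40). Replicates 1 and 2 also did so across numbers (0.09 and 0.16), while replicate 3 ran against both (-0.2 to -0.3). The numbers, taken from the sample titles, thus set off replicate 3 and did not tell replicates 1 and 2 apart. The labels used here state no pairing, and other groups did not deviate together in this way. The values printed come from the fit without the block, and blocked calls that differ are given for the depots on SD. The code was tested on simulated data.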

Additional observations from a re-analysis of the deposited data

How the results depend on the processing

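The depot calls were the most stable. On HFD 24 of 30 calls and on SD 18 of 30 held in every alternative, against 8 of 17 for diet in VWAT and 0 of 3 for diet in SWAT, and no called member changed sign. Counts of called members with 1 library left out ran from 8 to 29 for diet in VWAT, 0 to 8 for diet in SWAT (8 without replicate 3 of VWAT HFD), 0 to 3 for the interaction, 22 to 34 for the depots on SD and 26 to 33 on HFD. For diet in SWAT the count was 6 by DESeq2, 1 by limma voom and 5 with the 6 libraries compared; for the interaction it was 1 by DESeq2. The cause was not tested. With the replicate block 21 members were called for diet in VWAT (16% of genes), 3 for diet in SWAT (1.73%), 0 for the interaction (0.00701%), 33 for the depots on SD (25.7%) and 30 on HFD (26.5%); a fit of the 6 SD libraries with the block, chosen after seeing the data, called 41 (47.3% of genes). Same-numbered libraries did not deviate together in the diet comparisons (correlations -0.02, 0.03 and 0.07 in VWAT and 0.01, 0.12 and 0.13 in SWAT). Library size alone moved the median log2 change of all genes to -0.177 for diet in SWAT. Depth limits Mmp12, Adamts18, Adamts20, Adam4, Adam8, Mmp9, Timp4, Mmp28, Adamts17 and Adamts19, which had few counts in at least 1 group.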

Other observations

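Adam7, an ADAM of the epididymis, matched the symbol but not the count minimum. It had 38, 0 and 98 counts in the VWAT SD libraries, 0, 0 and 1 in VWAT HFD and 0 in all SWAT libraries, and was not tested.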
